A study of Homo sapiens with 8 samples.

Results

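Lysosomal hydrolases, lysosomal membrane proteins, the MiT/TFE transcription factors and the subunits of the vacuolar proton pump (V-ATPase) were followed in AGS cells kept with podofilox. The genes are those of a list of symbols together with 21 genes whose symbol begins with ATP6V0 or ATP6V1. These 21 are the genes with that prefix that had a probe set for a single gene. All listed symbols were measured. The 56 genes, of 18132 in all, fall into 25 hydrolases (with PSAP, the precursor of their lipid-binding activators), 21 pump subunits, and 10 membrane proteins and transcription factors. AGS is an established line from a human gastric adenocarcinoma, and podofilox (podophyllotoxin) comes from plants and blocks microtubule assembly by binding tubulin. The 4 podofilox arrays carried RNA of cells given 3.4 nM for 72 hours, and the 4 control arrays carried RNA of AGS cells without the drug, kept in medium with serum and antibiotics like the treated cells. The labels name no solvent and no time in culture for the control cells, so time in culture cannot be told apart from the drug. They name no separate cultures either, so the p-values measure the spread between arrays, which may be technical.

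Lysosomes break down proteins, lipids and sugars with acid hydrolases, which are tagged with mannose 6-phosphate in the Golgi and carried to the organelle. The V-ATPase acidifies the lumen. Its V1 sector hydrolyses ATP in the cytosol and its V0 sector moves protons through the membrane. TFEB, TFE3 and MITF bind an E-box element called CLEAR that is common in promoters of lysosomal genes, and lysosomes travel through the cell along microtubules.

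All values are log2 expression of the deposited table, and each difference is podofilox minus control. The words rose and fell are kept for genes whose two-sided limma p, adjusted by Benjamini-Hochberg over all 18132 genes, was under 0.05. For further probe sets of a gene, they refer to the same threshold in a separate limma fit over all single-gene probe sets. Where another fit is named, such as the mean of probe sets, they refer to that fit. Errors of means are SDs over 4 arrays, and errors of differences are limma's moderated standard errors (SE). These are averages over bulk RNA, so fewer cells with a transcript and less of it in each cell cannot be told apart.

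The differences of the lysosomal and pump genes were small. Of the 56 genes, 4 rose and 8 fell, which is 21.4%, where 21.0% of all genes changed, 8.55% upward and 12.5% downward. That background was not matched for signal, as 41 of the 56 but only 9066 of all genes were at or above the median signal. The 21.4% is therefore not read as close to background. In a fit over those 9066 genes alone, 1481 rose and 2593 fell, a larger share than 21.0%. There 2 of 18 hydrolases rose and 3 fell, 0 of 14 pump genes rose and 6 fell, and 2 of 9 other genes rose and 2 fell. The median difference of the 56 was 0.00, and that of all genes was 0.01. Of 21 pump genes 1 rose and 4 fell, with a median difference of -0.12 and differences above 0 in 8. Of 25 hydrolase genes 1 rose and 2 fell, with a median of 0.03 and differences above 0 in 14. The difference between these classes was not tested. Of the 10 other genes 2 rose and 2 fell, with a median of 0.03. The 12 changes ran from 1.10-fold lower to 1.23-fold lower and from 1.14-fold to 1.21-fold higher. The median of the pump genes, each taken relative to its control mean, was -0.10, -0.03, -0.13 and -0.06 on podofilox arrays 1 to 4, and between -0.03 and 0.02 on the control arrays. For the hydrolases it was 0.04, 0.04, -0.02 and 0.01 on podofilox arrays 1 to 4, and between -0.02 and 0.03 on the control arrays. For the pump genes podofilox replicate 2 was level with the lowest control array and the other 3 podofilox arrays were below it, and those of the hydrolases spread across the control range and a little above it.

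**Figure D1:**
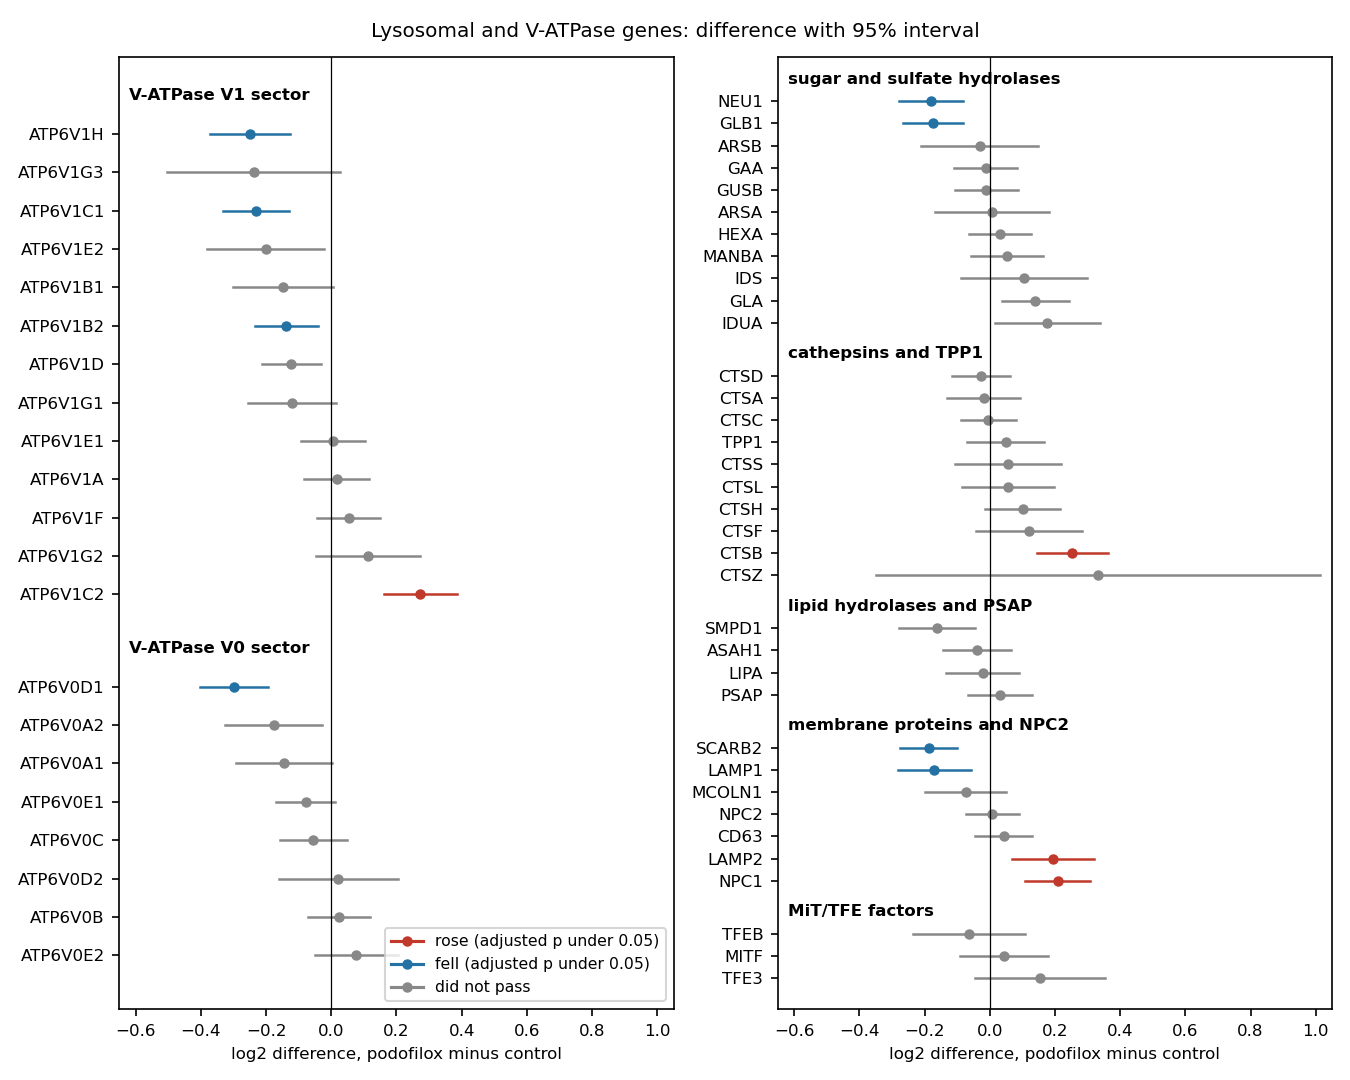
Log2 difference (podofilox minus control) of each of the 56 genes with its 95% interval from limma, grouped by role, with V-ATPase subunits on the left and the other genes on the right. Red genes rose, blue genes fell and grey genes did not pass the test; 4 of the 12 coloured genes lie to the right of 0 and 8 to the left, and CTSZ has the widest interval.

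Epithelial genes were measured at 12.95 ± 0.20 with podofilox and 12.78 ± 0.11 in control cells for EPCAM, an epithelial adhesion protein, and at 13.18 ± 0.02 and 13.16 ± 0.05 for the keratin KRT8 (SD, n = 4 each). Of the markers of other cell types, 0 of 10 fibroblast genes rose and 1 fell (PDGFRA, -0.27), 0 of 9 immune genes changed by limma, 2 of them with an unadjusted p under 0.05, and 0 of 8 endothelial genes rose and 1 fell (CDH5, -0.44). Both of these calls ended when probe sets were averaged. At or above the median signal were 1 of the fibroblast, 1 of the immune and 0 of the endothelial genes. PDGFRA read 8.50 ± 0.08 with podofilox and 8.78 ± 0.01 in control cells. The immune marker LYZ read 13.62 ± 0.09 and 13.60 ± 0.06, brighter than EPCAM and KRT8. Of 8 gastric and epithelial genes 3 rose, TFF1 by 1.08, CLDN4 by 0.50 and ANXA10 by 0.49, and their part in the lysosomal differences was not tested. Across genes, arrays correlated at 0.997 to 0.999 within a group and at 0.995 to 0.997 between groups. Array medians lay between 6.39 and 6.45.

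The V0 sector, which sits in the membrane, had 1 gene that changed. ATP6V0D1 encodes the widely expressed form of subunit d, which joins the rotor stalk to the proton-carrying ring. It read 9.23, 9.32, 9.22 and 9.24 on podofilox arrays 1 to 4, against 9.60, 9.55, 9.46 and 9.60 on control arrays 1 to 4. Every podofilox array lay below every control array. The difference was -0.30 (SE 0.05, adjusted p = 0.00164), or 1.23-fold lower with podofilox, the largest fall among the 56 genes. It was carried by 6 of the 7 probe sets of the gene. In a fit over all 44988 single-gene probe sets, 18.0% of which changed, 5 of its 6 other probe sets fell too (-0.35 to -0.33), and the dimmest differed by -0.02.

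The other V0 genes did not pass the test. ATP6V0D2, a form of subunit d found in few tissues, differed by 0.02. The large subunit a holds the path of the protons, and among its genes ATP6V0A1 and ATP6V0A2 differed by -0.15 and -0.18 (adjusted p = 0.153 and 0.0910). A further probe set of ATP6V0A2 fell by 0.31. Averaging its 3 probe sets made the gene pass the test (-0.22, adjusted p = 0.0153), as did leaving out podofilox replicate 1 (-0.23, adjusted p = 0.0246). Leaving out any of the other 7 arrays did not (adjusted p up to 0.217). The other probe set of ATP6V0A1 pointed upward (0.20, not past the test). The ring subunits ATP6V0C and ATP6V0B differed by -0.06 and 0.02, and the small subunits ATP6V0E1 and ATP6V0E2 by -0.08 and 0.08. ATP6V0C was read from an _x_at probe set, a kind that can bind more than 1 transcript.

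In the V1 sector, 3 genes fell. Subunit H is needed for the assembled pump to work. Its gene, ATP6V1H, read 8.53, 8.61, 8.49 and 8.55 on podofilox arrays, against 8.69, 8.91, 8.80 and 8.78 on control arrays. The groups did not overlap, the closest pair being podofilox replicate 2 and control replicate 1. The difference was -0.25 (SE 0.05, adjusted p = 0.00935), from its only single-gene probe set.

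ATP6V1C1 and ATP6V1C2 encode alternative forms of subunit C, a brace between V1 and V0 that comes off when the pump is taken apart. They moved in opposite directions. The widely expressed ATP6V1C1 read 9.11, 9.07, 9.19 and 9.16 on podofilox arrays, against 9.34, 9.44, 9.33 and 9.34 on control arrays. All podofilox values were lower. It fell by 0.23 (SE 0.05, adjusted p = 0.00573), and 3 of its 4 other probe sets fell as well, by 0.20 to 0.43. ATP6V1C2, known from kidney and lung, read 5.47, 5.37, 5.31 and 5.41 on podofilox arrays, against 5.09, 5.07, 5.11 and 5.20 on control arrays. All podofilox values were higher. It rose by 0.27 (SE 0.05, adjusted p = 0.00381), the largest rise among the genes that passed the test. Its other probe set differed by 0.15 and did not pass, and with the mean of both the call ended (0.21, adjusted p = 0.0975). Within arrays 1 and 2 the differences of ATP6V1C1 and ATP6V1C2 were -0.30 and 0.34, and within arrays 3 and 4 they were -0.16 and 0.20.

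ATP6V1B2 encodes the common form of subunit B, which lies beside the catalytic subunit in the ATP-hydrolysing ring. It read 9.28, 9.32, 9.29 and 9.21 on podofilox arrays, against 9.42, 9.46, 9.38 and 9.40 on control arrays. The groups did not overlap, but the gap between them was 0.05. The difference was -0.14 (SE 0.04, adjusted p = 0.0462). No call was left once any 1 of the 8 arrays was dropped (adjusted p = 0.0572 to 0.126) or the arrays were centred on their medians (adjusted p = 0.115). Both of its other probe sets fell in the fit over probe sets, by 0.17 and 0.21.

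The remaining V1 genes did not pass the test. ATP6V1A, which encodes the catalytic subunit, differed by 0.02, with a 95% interval of -0.08 to 0.12. ATP6V1D, of the rotor stalk, was lower on all 4 podofilox arrays (10.25, 10.32, 10.26 and 10.26) than on all 4 control arrays (10.35, 10.37, 10.41 and 10.44), with a difference of -0.12 (adjusted p = 0.0608). ATP6V1F, also of the rotor, differed by 0.05. The outer stalk genes ATP6V1E1 and ATP6V1G1 differed by 0.01 and -0.12. Forms of pump subunits known from few tissues were ATP6V1B1 (-0.15), ATP6V1E2 (-0.20), ATP6V1G2 (0.11) and ATP6V1G3 (-0.24). ATP6V1E2 differed by 0.01 within arrays 1 and 2 and by -0.41 within arrays 3 and 4. Averaged over its 2 probe sets it fell (-0.21, adjusted p = 0.00625). Neither probe set passed alone in the fit over probe sets (-0.20 and -0.21, adjusted p = 0.12 and 0.0846). Podofilox arrays 1 and 2 were above podofilox arrays 3 and 4 on the brightest probe set and below them on the other.

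**Figure D2:**
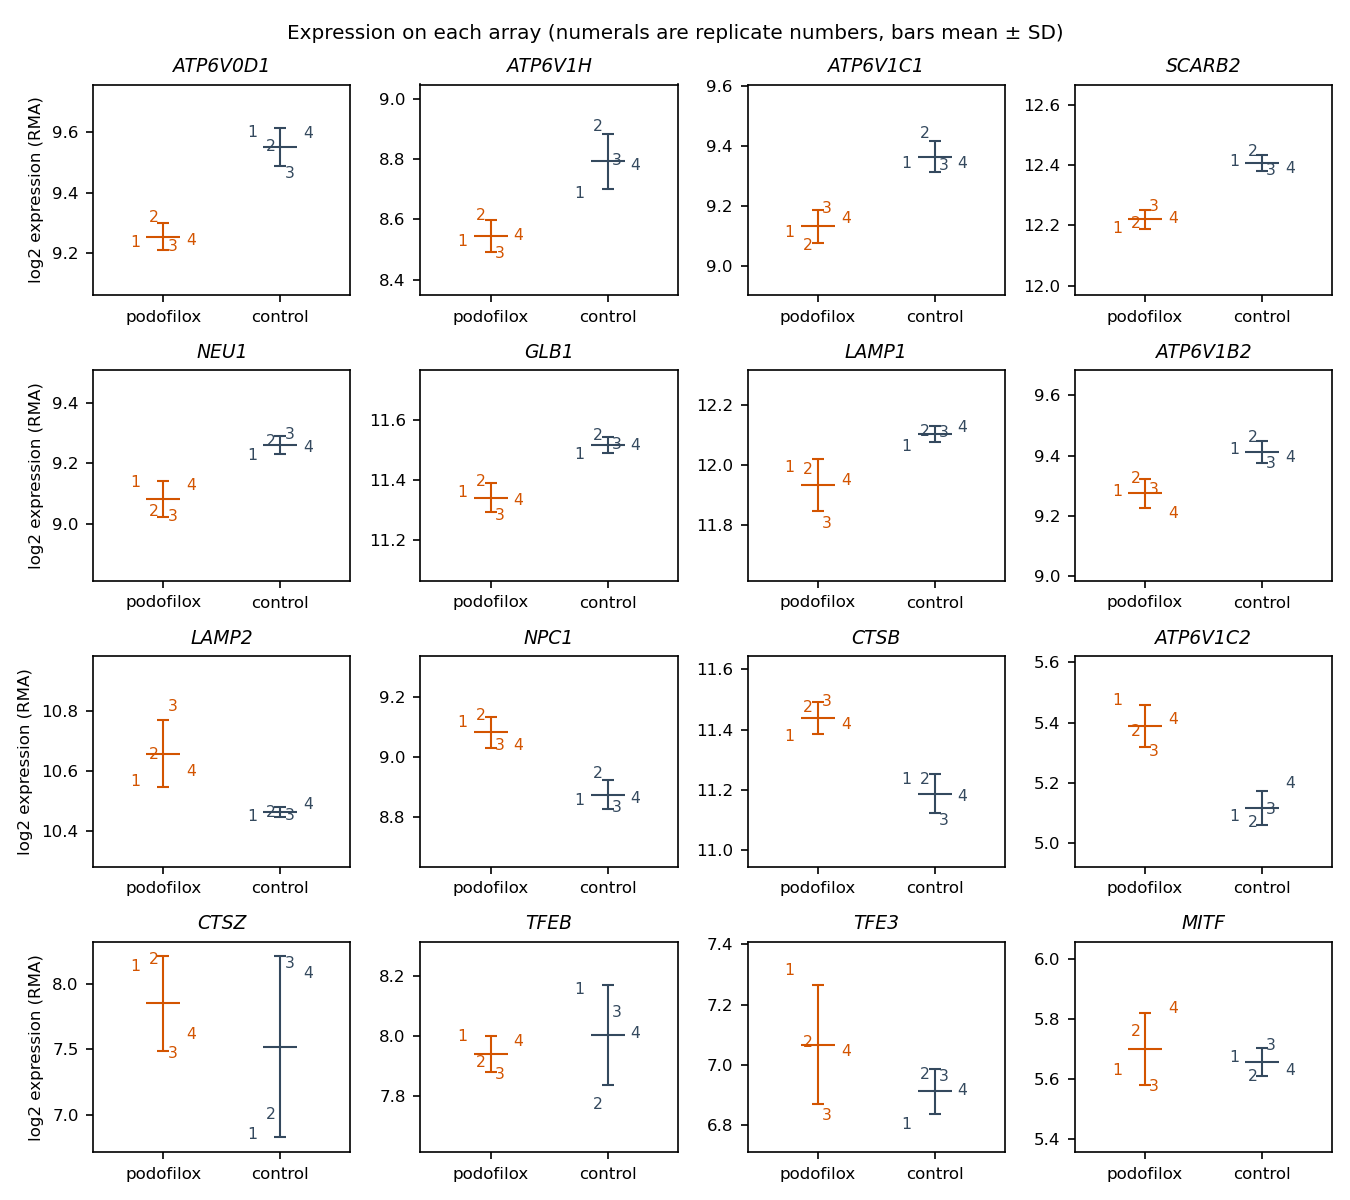
Log2 expression on each array for the 12 genes that changed, in order of their difference, and for CTSZ, TFEB, TFE3 and MITF. Podofilox is left and control right in each panel, numerals are replicate numbers, and horizontal and vertical bars are the mean and SD over 4 arrays, on axes that differ between panels and do not start at 0; in the 12 genes that changed no podofilox value lies within the control range, while in CTSZ, TFEB, TFE3 and MITF the groups overlap.

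Among enzymes that cut sugars and sulfates, 0 of 11 rose and 2 fell. GLB1, beta-galactosidase, and NEU1, the lysosomal sialidase, form a complex with cathepsin A (CTSA), which protects both. GLB1 read 11.36, 11.39, 11.28 and 11.33 on podofilox arrays, against 11.48, 11.55, 11.52 and 11.51 on control arrays, a fall of 0.17 (SE 0.04, adjusted p = 0.0146). Its other probe sets pointed the same way, the first of them past the test, at -0.16, and the other not, at -0.14. NEU1 read 9.14, 9.04, 9.02 and 9.13 on podofilox arrays, against 9.22, 9.27, 9.30 and 9.25 on control arrays, a fall of 0.18 (SE 0.04, adjusted p = 0.0163). The groups of both genes did not overlap. The call of NEU1 ended without podofilox replicate 2 (adjusted p = 0.0512). CTSA differed by -0.02 (95% interval -0.13 to 0.09) and its groups overlapped.

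The other 9 of these enzymes did not pass the test. GLA, alpha-galactosidase A, came closest. It was 9.96, 9.99, 9.94 and 9.89 on podofilox arrays, all above the 9.81, 9.87, 9.72 and 9.82 of control arrays. The difference was 0.14 (adjusted p = 0.0587). GLA passed without control replicate 2 (adjusted p = 0.0438), but not without any of the other 7 arrays (adjusted p up to 0.145). The mean of its 3 probe sets stood at 0.09 (adjusted p = 0.197). With _x_at and _s_at probe sets set aside GLA stood at 0.12 (adjusted p = 0.139). The iduronidase IDUA (0.18, adjusted p = 0.114) and the iduronate sulfatase IDS (0.10) cut heparan and dermatan sulfate. IDUA passed without control replicate 2 (adjusted p = 0.0465), but not without any of the other 7 arrays (adjusted p up to 0.239). GAA, which breaks down glycogen, and the glucuronidase GUSB differed by -0.01 each. The hexosaminidase subunit HEXA, the mannosidase MANBA and the sulfatases ARSA and ARSB differed by 0.03, 0.05, 0.01 and -0.03. A dimmer probe set of ARSB fell by 0.18 in the fit over probe sets (limma, adjusted p = 0.0448), and its 2 others, at -0.10 and 0.11, did not pass.

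Of 9 cathepsins and the tripeptidyl peptidase TPP1, 1 rose and 0 fell. CTSB, a cysteine protease of lysosomes, read 11.38, 11.47, 11.49 and 11.42 on podofilox arrays, against 11.24, 11.23, 11.10 and 11.18 on control arrays. All podofilox values were higher. It rose by 0.25 (SE 0.05, adjusted p = 0.00466), or 1.19-fold, and its 3 other probe sets rose by 0.27, 0.30 and 0.37. Arrays 1 and 2 alone gave 0.19, and arrays 3 and 4 alone gave 0.32.

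CTSZ, a carboxypeptidase, was the most variable of the 56 genes. It read 8.14, 8.19, 7.47 and 7.61 on podofilox arrays 1 to 4, against 6.84, 7.00, 8.15 and 8.08 on control arrays 1 to 4. Podofilox arrays 1 and 2 were the high ones of their group, and control arrays 1 and 2 the low ones of theirs. The difference over all arrays was 0.33 (SE 0.31, adjusted p = 0.494). Within arrays 1 and 2 it was 1.24 (adjusted p = 0.0146), and within arrays 3 and 4 it was -0.58 (adjusted p = 0.0137). The gene had 1 single-gene probe set, so no other probe set could be set beside it.

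The remaining proteases differed by little. CTSD, the main aspartic protease of lysosomes, was at 10.27 ± 0.03 with podofilox and 10.30 ± 0.03 in control cells (SD, n = 4 each). CTSC, which activates serine proteases of immune cells, was at 10.21 in both groups, with a 95% interval of the difference of -0.09 to 0.08. A dim probe set of CTSC, at 4.84 with podofilox and 4.45 in control cells, rose by 0.39 (limma, adjusted p = 0.0122). The remaining probe set, at 10.11 with podofilox and 10.26 in control cells, differed by -0.14 (adjusted p = 0.0523), with every podofilox array below every control array. CTSH, an aminopeptidase, differed by 0.10 and CTSF by 0.12. CTSS, a cysteine protease of antigen-presenting cells, and TPP1 differed by 0.06 and 0.05. CTSL differed by 0.06 on a probe set at 3.45 with podofilox and 3.39 in control cells, where the lowest value of the whole table was 2.64.

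None of the 4 genes of lipid breakdown passed the test by limma, and 1, SMPD1, had an unadjusted p under 0.05. SMPD1, acid sphingomyelinase, was 7.39, 7.39, 7.33 and 7.49 on podofilox arrays, against 7.61, 7.45, 7.60 and 7.58 on control arrays. Only podofilox replicate 4 and control replicate 2 crossed, and the difference was -0.16 (adjusted p = 0.0543). It passed the test without podofilox replicate 4 (-0.19, adjusted p = 0.0417) and without control replicate 2 (-0.20, adjusted p = 0.0227). Leaving out any of the other 6 arrays did not make it pass (adjusted p up to 0.131). The acid ceramidase ASAH1, the acid lipase LIPA and PSAP differed by -0.04, -0.02 and 0.03.

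The membrane proteins went both ways. LAMP1 and LAMP2 are the abundant glycoproteins that line the lysosomal membrane. LAMP2 read 10.56, 10.65, 10.81 and 10.60 on podofilox arrays, against 10.45, 10.46, 10.45 and 10.49 on control arrays. All podofilox values were higher, and podofilox replicate 3 was the highest. It rose by 0.19 (SE 0.06, adjusted p = 0.0344). Of its 8 other probe sets 7 pointed upward, 3 of them past the test, and 1 downward (-0.08). Dropping podofilox replicate 2 or any of the 4 control arrays took the adjusted p to between 0.0634 and 0.0767.

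LAMP1 read 11.99, 11.99, 11.81 and 11.95 on podofilox arrays, against 12.06, 12.11, 12.11 and 12.12 on control arrays. All podofilox values were lower, and podofilox replicate 3 was the lowest. It fell by 0.17 (SE 0.05, adjusted p = 0.0379). It kept its call without podofilox replicate 1 but not without any other array, where the adjusted p lay between 0.0514 and 0.101. With _x_at and _s_at probe sets set aside it stood at -0.08 (adjusted p = 0.283). Arrays 1 and 2 alone gave -0.10, and arrays 3 and 4 alone gave -0.24.

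SCARB2, also called LIMP-2, carries the enzyme glucocerebrosidase to lysosomes. It read 12.19, 12.21, 12.26 and 12.22 on podofilox arrays, against 12.41, 12.45, 12.38 and 12.39 on control arrays. The groups did not overlap, and it fell by 0.19 (SE 0.04, adjusted p = 0.00770). Its 3 other probe sets, at -0.10, -0.02 and 0.11, did not pass the test, and with the mean of all 4 the call ended (-0.05, adjusted p = 0.670). NPC1, which moves cholesterol out through the lysosomal membrane, read 9.12, 9.14, 9.04 and 9.04 on podofilox arrays, against 8.86, 8.95, 8.83 and 8.86 on control arrays. All podofilox values were higher. It rose by 0.21 (SE 0.05, adjusted p = 0.00903), and its other probe set stood at 0.21 without passing. NPC2, the soluble protein that hands cholesterol to NPC1, was at 12.90 ± 0.02 with podofilox and 12.89 ± 0.01 in control cells (SD, n = 4 each), with a 95% interval of the difference of -0.07 to 0.09.

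CD63, a tetraspanin of late endosomes, differed by 0.04. MCOLN1, a calcium channel of the lysosomal membrane, differed by -0.07 on its brightest probe set and did not pass the test. Its other probe set was 6.78, 6.62, 6.43 and 6.46 on podofilox arrays, against 7.11, 6.82, 7.09 and 7.04 on control arrays, a fall of 0.44 in the fit over probe sets (adjusted p = 0.00684). The probe sets of this gene therefore gave different answers, and their mean fell (-0.26, adjusted p = 0.0114).

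**Figure D3:**
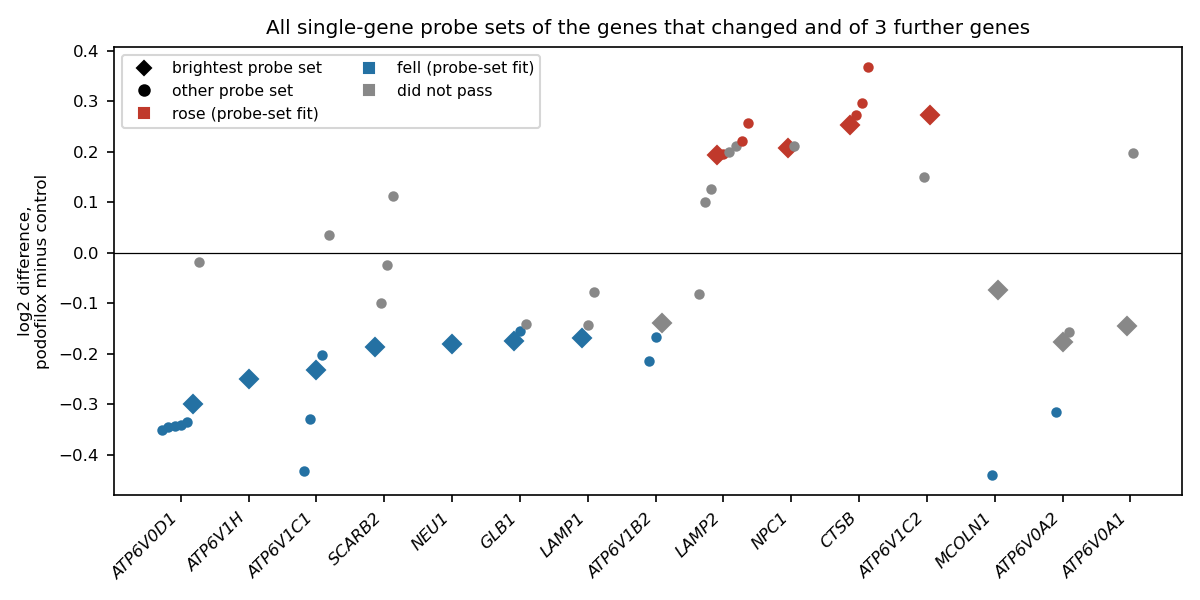
Log2 difference (podofilox minus control) of every single-gene probe set of the 12 genes that changed and of MCOLN1, ATP6V0A2 and ATP6V0A1, with the brightest probe set as a diamond. Colours are calls of the fit over all probe sets, in which the brightest probe set of ATP6V1B2 did not pass; 6 of 7 probe sets of ATP6V0D1 and all 4 of CTSB passed in 1 direction, whereas only the brightest of the 4 of SCARB2 did.

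The transcription factors that act on CLEAR elements did not pass the test. TFEB was 8.00, 7.91, 7.87 and 7.98 on podofilox arrays, against 8.16, 7.77, 8.08 and 8.01 on control arrays, a difference of -0.06 (95% interval -0.23 to 0.11). TFE3 was 7.31, 7.08, 6.83 and 7.04 on podofilox arrays, against 6.80, 6.97, 6.96 and 6.92 on control arrays, a difference of 0.16 (95% interval -0.04 to 0.35). MITF differed by 0.04 (95% interval -0.09 to 0.18). The groups of all 3 overlapped. These factors are known to be controlled by phosphorylation and by their place in the cell, which mRNA levels do not show.

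The promoters of these genes were searched for the element. RefSeq promoter windows of assembly GRCh38.p14, from 250 bases before to 50 after the gene start, were found for 41 of the 56 genes. The E-box CACGTG reads the same on both strands. It occurred in 12 of the 41 windows (29.3%) and in 8.82% of the 14425 windows of all measured genes with an entry. The longer CLEAR core TCACGTGA, which contains the E-box, occurred in 6 of 41 (14.6%), against 1.47% of all windows. The core with a G before it and a C after it occurred in 3 of 41 (7.32%), against 0.582%. E-boxes stood in 5 of 18 hydrolase windows, 4 of 14 pump windows and 3 of 9 windows of the other genes. By response, they stood in 3 of the 5 genes with a window that fell (NEU1, LAMP1 and ATP6V0D1), 0 of the 2 that rose (NPC1 and ATP6V1C2) and 9 of the 34 that did not pass the test. These counts are small and describe letters in a window, not bound sites.

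The stretches below show where the E-boxes lie, for the 3 genes that fell and for MCOLN1, whose probe sets gave different answers. Each runs 5′ to 3′ on the strand of the gene, with E-boxes in capitals, and ends before the gene start. LAMP1 is at chr13:113297039-113297238 on the plus strand, ATP6V0D1 at chr16:67481158-67481257 on the minus strand, NEU1 at chr6:31862872-31862971 on the minus strand, and MCOLN1 at chr19:7522474-7522623 on the plus strand.
LAMP1: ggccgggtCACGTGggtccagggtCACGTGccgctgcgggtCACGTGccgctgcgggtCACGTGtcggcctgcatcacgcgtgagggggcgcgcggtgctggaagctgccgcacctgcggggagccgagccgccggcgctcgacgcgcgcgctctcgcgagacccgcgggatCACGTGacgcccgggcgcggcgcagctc
ATP6V0D1: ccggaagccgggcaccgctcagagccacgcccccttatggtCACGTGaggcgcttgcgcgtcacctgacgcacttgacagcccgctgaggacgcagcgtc
NEU1: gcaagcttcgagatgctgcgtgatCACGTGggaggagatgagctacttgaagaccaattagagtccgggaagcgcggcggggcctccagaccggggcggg
MCOLN1: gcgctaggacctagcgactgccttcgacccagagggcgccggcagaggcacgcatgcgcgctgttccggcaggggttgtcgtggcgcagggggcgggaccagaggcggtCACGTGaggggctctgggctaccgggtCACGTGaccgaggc

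LAMP1 had the most E-boxes, 6 in its whole window. The 5 printed begin at positions -192, -176, -159, -142 and -28 relative to the gene start, and the sixth lies across it. The E-box of ATP6V0D1 begins at -59, that of NEU1 at -126, and those of MCOLN1 at -41 and -14. LAMP1, GAA and MCOLN1 had 2 CLEAR cores each, and of these LAMP1 fell while GAA and MCOLN1 did not pass the test, with differences of -0.01 and -0.07.

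**Figure D4:**
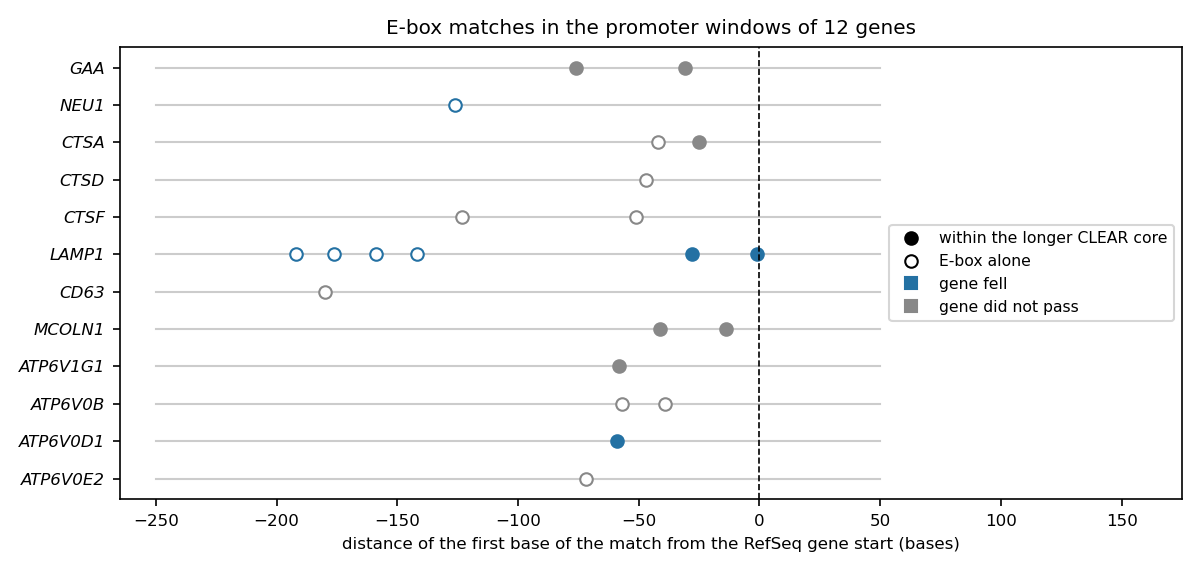
Distance in bases of each E-box from the RefSeq gene start (dashed line) in the promoter windows (grey lines) of the 12 genes that hold one. Filled circles lie within the longer CLEAR core, blue marks genes that fell and grey marks genes that did not pass the test; LAMP1 holds 6 E-boxes and the other genes 1 or 2.

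Genes that build, supply and move the lysosome were read from context lists, whose shares are given beside the 21.0% of all genes that changed, without a test of the lists. The 21.0% is not matched for signal. Most listed genes were at or above the median signal: in the order below, 12 of 13, 17 of 26, 18 of 21, 16 of 17, 12 of 18 and 16 of 16. In the fit over the 9066 genes at or above it, 1481 rose and 2593 fell, so no share here is read as high or low for such genes. Of 13 measured accessory and assembly factors of the V-ATPase, 3 rose and 4 fell (53.8%). Counted with them was TCIRG1, which encodes a form of subunit a of the V0 sector itself. VMA21, VMA22 and VMA12, which help to build the V0 sector in the endoplasmic reticulum, fell by 0.47 (SE 0.05, adjusted p = 0.000154), 0.28 (SE 0.05) and 0.27 (SE 0.06). Averaged over its probe sets VMA21 stood at -0.20 (adjusted p = 0.0153). NCOA7, which binds the pump, rose by 0.39 (SE 0.04, adjusted p = 0.000162). Of 26 other lysosomal membrane proteins, 4 rose and 9 fell (50%), with a median difference of -0.10. The nucleoside transporter SLC29A3 fell by 0.44 (SE 0.05), HGSNAT, which acetylates heparan sulfate at the membrane, fell by 0.28 (SE 0.04), and LAPTM4A rose by 0.18 (SE 0.04). The amino acid transporter SLC36A1 fell by 0.47 on its brightest probe set but rose by 0.16 once _x_at and _s_at probe sets were set aside (adjusted p = 0.0346). Of 21 other hydrolases and activators, 1 rose and 3 fell (19.0%). The collagen-cutting cathepsin CTSK rose by 0.32 (SE 0.05, adjusted p = 0.00113). The galactosylceramidase GALC, the acid phosphatase ACP2 and the sulfatase GALNS fell by 0.28, 0.26 and 0.22 (SE 0.04, 0.06 and 0.05), and GALNS stood at -0.14 with those probe sets set aside (adjusted p = 0.175).

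Of 17 genes of mannose 6-phosphate sorting, 1 rose and 4 fell (29.4%). IGF2R, the large mannose 6-phosphate receptor, fell by 0.34 (SE 0.04, adjusted p = 0.000413). NAGPA, which uncovers the mannose 6-phosphate tag, and SUMF1, which activates sulfatases, fell by 0.24 (SE 0.06) and 0.25 (SE 0.04), NAGPA with an adjusted p of 0.0531 without control replicate 4. AP1S3, a subunit of an adaptor of Golgi vesicles, rose by 0.33 (SE 0.05). Of 18 genes of mTORC1 and TFEB control at the lysosome, 0 rose and 4 fell (22.2%). MTOR, the growth kinase, fell by 0.34 (SE 0.05), and by 0.17 with the mean of its probe sets. RRAGC, a GTPase that brings mTORC1 to lysosomes, fell by 0.20 (SE 0.05). Its adjusted p was 0.0596 without control replicate 4, and 0.0891 with _x_at and _s_at probe sets set aside. TSC1 and TSC2, which restrain the kinase, fell by 0.33 and 0.23, and with the mean of probe sets both calls ended (-0.10, adjusted p = 0.0553, and -0.01, adjusted p = 0.913). Of 16 genes of lysosome tethering and movement, 0 rose and 3 fell (18.8%). BORCS7, part of a complex that couples lysosomes to kinesin, fell by 0.41 (SE 0.07), and the tethering subunits VPS41 and VPS11 fell by 0.32 (SE 0.05) and 0.17 (SE 0.05). VPS11 did not pass without podofilox replicate 2 or 4 or control replicate 1, 3 or 4 (adjusted p = 0.0510 to 0.0730).

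Across all 18132 genes, podofilox and control arrays did not overlap for 26.2%. Among the 56 genes this held for 15, with podofilox above in 5 and below in 10. Besides the 12 genes that changed, these were GLA, ATP6V1D and ATP6V0E1, which read 11.67, 11.74, 11.64 and 11.72 on podofilox arrays, against 11.76, 11.77, 11.76 and 11.80 on control arrays (adjusted p = 0.214).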

How the data were processed

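RNA of 4 podofilox and 4 control samples of AGS cells was measured on 8 Affymetrix arrays of 1 colour. The authors deposited log2 expression for every probe set on every array. They produced it by RMA, per the submitters' processing notes, and its software and settings were not stated. That the scale is log2 follows from a range of 2.64 to 15.0. Detection calls were not used here, and precision is limited by the 8 arrays.

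Of 49395 probe sets, 44988 carried a single gene in the platform annotation, 1832 several and 2473 none named here, and 102 were controls. RefSeq (GRCh38.p14) held the Entrez identifiers of 44961, and 0 symbols changed. The brightest single-gene probe set, by mean over all arrays, stood for each gene. Of the 56 genes described, 18 were read from an _x_at or _s_at probe set. Of the context lists, a few genes without a single-gene probe set were not analysed here.

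The comparison used lmFit and eBayes of limma 3.58.1 (R 4.3.3) without covariates or an intensity filter, after a test on simulated data. Alternatives changed the normalization, signal filter, probe-set rule, array weights or arrays included. Intervals cover 95%. Python 3.11.15 and matplotlib 3.10.9 drew the figures. The genes, lists, tests and alternatives were chosen with earlier results of these data known. All 56 genes are named, those past the test with each array's value, and each context list with up to 4 changed genes of smallest p. ATP6V0E1, GLA, ATP6V1D, SMPD1, CTSZ, TFEB, TFE3 and the second MCOLN1 probe set were given per array after their values were seen.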

Additional observations from a re-analysis of the deposited data

Results flagged for a closer look

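In 6 of 112 groups of 4 arrays (56 genes, both groups), 1 array stood apart from the other 3 by more than Dixon's 95% critical value allows. Chance alone marks about 1 group in 20, or 5.6 of 112. Podofilox replicate 3 was low for PSAP (12.88, the others 13.00 to 13.01). Podofilox replicate 1 was low for ATP6V1A (10.64, the others 10.72 to 10.73), and podofilox replicate 2 was high for ATP6V1D (10.32, the others 10.25 to 10.26). Control replicate 2 was low for SMPD1 (7.45, the others 7.58 to 7.61) and high for ATP6V1C1 (9.44, the others 9.33 to 9.34). Control replicate 3 was high for ATP6V1G3 (5.02, the others 4.40 to 4.49). Without control replicate 2, SMPD1 stood at -0.20 and passed the test by limma (adjusted p = 0.0227). That array was flagged from these same values and lay toward the podofilox arrays. Leaving it out was bound to widen the difference, so this p-value is no support for a fall.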

How the results depend on the processing

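Of the 12 genes that changed, 8 kept their call on leaving out any 1 array. Leaving out 1 array gave, over all genes, 1059 to 1573 rises and 1647 to 2145 falls, against 1550 and 2260. It gave 1 to 3 rises and 1 to 3 falls among hydrolases, 1 rise and 3 to 4 falls among pump genes, and 1 to 2 rises and 1 to 2 falls among the other genes. Hydrolase rises were 2 among genes above the median signal, with quantile normalization once more and with intensity trend and robust estimation, and 3 with array weights, which gave 8 pump falls and 2406 rises over all genes. Pump rises were 0 above the median signal, where ATP6V1C2 was not tested, and with the mean of probe sets. Falls among membrane proteins and transcription factors were 1 with quantile normalization and without _x_at and _s_at probe sets. With the replicate block, hydrolase falls were 0, and the other genes had 1 rise and 1 fall. By limma with the replicate block, the 2 hydrolases that fell, GLB1 and NEU1, had adjusted p = 0.0504 and 0.0641. The replicate block ended 5 of the 12 calls: GLB1, NEU1, LAMP1, LAMP2 and ATP6V1B2. Deviations of same-numbered arrays from their group means correlated at -0.131, 0.089, -0.238 and 0.061. Those of differently numbered arrays correlated at -0.152 to 0.24. With 4 arrays a group, these values cannot tell whether same-numbered arrays share a batch, and the labels name none. Within arrays 1 and 2, where 2 arrays a group were fitted, there were 468 rises and 542 falls over all genes, 0 falls among hydrolases and pump genes, and 0 rises and 0 falls among the other genes. Within arrays 3 and 4 there were 905 rises and 1395 falls over all genes, and 0 rises and 0 falls among the other genes. Pump genes had 0 rises and 3 falls there (ATP6V0D1, ATP6V1H and ATP6V1E2, the last not called over all arrays). Hydrolases had 1 rise (CTSB) and 1 fall. The hydrolase that fell there was CTSZ, while GLB1 and NEU1 did not pass (limma, adjusted p = 0.0669 and 0.0966). The 1 hydrolase that rose within arrays 1 and 2 was CTSZ too. In these fits fewer samples enter. The difference turned to -0.58 for CTSZ within arrays 3 and 4, to 0.16 for SLC36A1 without _x_at and _s_at probe sets, and to 0.0904 for the fibroblast marker PDGFRA with the mean of probe sets. The causes were not tested. With no detection calls, signal over background could not be read for dim genes such as CTSL.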
